A study of Mus musculus with 36 samples.

Results

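The genes described here encode the core and decapping factors of the processing body (P-body): Ddx6, Lsm14a, Lsm14b, Eif4enif1, Patl1, Dcp2, Dcp1a, Dcp1b, Edc3 and Edc4. They were chosen by name and not by a cut on any measured value, but with earlier results of these data known. All 10 were present in each of the 3 deposited read tables, which listed 25239 genes for the sorted fractions of wild-type embryonic stem (ES) cells and fibroblasts, 48440 for Ago2 knockout ES cells and 25229 for polysome-bound and total RNA. All 10 also passed the filter on low counts (10 reads over all libraries of a comparison) in every comparison. The libraries measured the mRNAs of these factors, not the proteins, so the values compare transcript abundance between fractions and between cells.

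P-bodies are cytoplasmic condensates of untranslated mRNA and of proteins that repress translation and remove the mRNA cap. DDX6 is a DEAD-box RNA helicase that links repressors to the decapping machinery and is needed to form P-bodies in many cell types. LSM14A and LSM14B are scaffold proteins that bind DDX6, and EIF4ENIF1 (4E-T) binds the cap-binding protein eIF4E and also DDX6. PATL1 bridges DDX6 with the LSM ring that sits on deadenylated mRNA. DCP2 is the enzyme that cleaves the cap, DCP1A and DCP1B are its activating partners, and EDC3 and EDC4 are enhancers of decapping that hold the complex together. The same proteins thus assemble the condensate, and their own mRNAs can be found in it or outside it.

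RNA was sequenced from 36 mouse libraries in 16 groups of 2 or 3 replicates, as P-body RNA beside the matching cytoplasm or as polysome-bound RNA beside total RNA. In the study, the cytoplasm fraction was a resuspended pellet of the lysate after removal of nuclei, and P-bodies were sorted from it. The cytoplasm libraries came from aliquots taken before sorting, which still held P-bodies. Each P-body fold change thus sets a part against its whole. The P-body groups were naive ES cells of a C57BL/6 × 129S4Sv/Jae cross kept in 2i/LIF, primed ES cells derived from them with activin A, basic FGF and serum replacement, mouse embryonic fibroblasts (MEFs), MEFs on day 3 of reprogramming with a control hairpin or with a hairpin against Nudt21, and naive ES cells with a knockout (KO) of Ago2. The reprogramming MEFs carried a doxycycline-inducible OKSM cassette at Col1a1, M2-rtTA at Rosa26 and a Pou5f1-EGFP reporter, and doxycycline was given to both day 3 groups. MEFs are primary cultures from the bodies of embryos after removal of the head and internal organs, and whether the untreated MEFs came from CD1 or from OKSM embryos is not given in the labels. Cells of every sorted group also carried a lentiviral GFP-LSM14A construct under the EF1a promoter, which labels the P-bodies for sorting. Reads from that construct could count toward Lsm14a wherever its sequence matches the mouse gene, and their share was not tested. The Ago2 KO cells came from single-cell cloning after a paired-guide CRISPR deletion of the first exon, so clonal cells were compared. Polysome-bound and total RNA came from naive ES cells in which both Ddx6 alleles ended in an FKBP12 degron tag and P2A-mCherry. These cells were grown from single-cell clones and held the GFP-LSM14A construct as well, so its reads could also count toward Lsm14a in polysome and total RNA. The control and the DDX6-depleted cells shared that tagged allele, and only the depleted cells received the degrader dTAG-13. That treatment lasted hours and not days. Control and depleted cells alike were treated with cycloheximide before and during harvest. The degron acts on the protein, so the Ddx6 mRNA level does not check its removal. Fewer cells or particles of a kind and less RNA in each cannot be told apart in these bulk libraries.

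Because the study asked whether microRNA sites and 3′ untranslated regions (UTRs) direct mRNAs into P-bodies, the 3′ UTRs of the members are shown first. They were read from the longest protein-coding transcript of each gene in GENCODE M21 (mm10) and compared with those of 17058 genes, whose median 3′ UTR was 1020 bases. Dcp2 had a 3′ UTR of 7240 bases, longer than in 98.9% of genes, and Ddx6 (mm10 chr9:44604892-44640731, plus strand) had one of 4250 bases at percentile 93.9. At the other end, Edc4 (chr8:105880881-105894908, plus strand) had 363 bases at percentile 22.95 and Eif4enif1 (chr11:3202392-3244588, plus strand) had 498 bases. Edc3 (chr9:57708540-57752499, plus strand) had 4004 bases and Dcp1a (chr14:30479535-30527063, plus strand) had 3757 bases. Lsm14a (chr7:34344646-34393315, minus strand), Lsm14b (chr2:180024987-180035465, plus strand), Dcp1b (chr6:119175253-119221616, plus strand) and Patl1 (chr19:11912399-11945091, plus strand) had 3′ UTRs of 1181 to 1739 bases.

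The let-7 seed match CTACCTC, searched on the mRNA strand of the 3′ UTR, was found in 1 of the 10 members, Edc3, and in 9.52% of all 3′ UTRs. Among 3′ UTRs of like length to that of Edc3, 22.5% held it. The Pumilio motif TGTANATA, searched in the same way, was found in 8 of the 10 members and in 24.2% of all 3′ UTRs. It occurred at 2 places in Ddx6, and 53.4% of 3′ UTRs of like length to that of Ddx6 held it at least once. Over the 8 members with the motif, that share ran from 9.65% for the length of Eif4enif1 to 74.2% for that of Dcp2. The AU-rich pentamer ATTTA occurred 18 times in Dcp2 and 7 times in Ddx6. It was found in 66.1% of all 3′ UTRs, but in 100% and 98.4% of those of like length to the 3′ UTRs of Dcp2 and Ddx6. A match to any of these letters is a description and not a known site. The mature microRNAs let-7a and let-7g below (RefSeq, GRCm38.p6) share their seed, bases 2 to 8, which is set in capitals. They are shown with the Edc3 match, in which capitals mark the bases opposite the seed, and with the Ddx6 matches, in which capitals mark the Pumilio motif. Genome positions are mm10, plus strand, and span all letters printed, whereas the base number in the 3′ UTR is that of the first capital letter.
let-7a-5p: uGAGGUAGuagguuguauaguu
let-7g-5p: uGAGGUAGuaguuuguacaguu
Edc3 3′ UTR, base 759 (chr9:57749238-57749261): cttctaccatcatttcCTACCTCc
Ddx6 3′ UTR, base 683 (chr9:44637149-44637172): gcagtccatccacacTGTACATAc
Ddx6 3′ UTR, base 964 (chr9:44637430-44637453): tacttgtataaacttTGTAAATAa

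Library totals ran from 6769731 to 12772246 reads in the ES cell fractions, from 19384742 to 31185874 in the fibroblast fractions, from 15624401 to 17486268 in the Ago2 KO fractions and from 13308782 to 29362195 in polysome and total RNA. Levels below are in CPM, the reads of a gene scaled to the total of its library after adjustment of that total by the TMM factor of the library. Cytoplasmic RNA matched its labels: 8 naive markers summed to 1824–1865 CPM in naive and 103–110 CPM in primed cells, and 7 fibroblast markers to 27015–30129 CPM in MEFs and 49.6–78.3 CPM in naive cells. Nudt21 was at 4.87–5.94 CPM in the 4 knockdown libraries and at 88.9–110 CPM in the 4 day 3 control libraries, and Ago2 was at 2.54–4.83 CPM in the 4 KO libraries. The MEF P-body libraries stood apart in lung epithelial RNA, because 4 of 4 lung epithelial markers had reads there (6.57 and 96.0 CPM summed) while none had any in MEF cytoplasm. The sum of 5 nuclear-retained RNAs, a sign of nuclei in a fraction, was higher in P-bodies than in cytoplasm in MEFs (5378–7422 against 1145–1219 CPM), naive cells (589–621 against 201–263 CPM), Ago2 KO cells (617–651 against 189.5–468 CPM) and day 3 control cells (1540–1788 against 1436–1449 CPM). It was lower in P-bodies of primed cells (531–579 against 721–894 CPM) and of the Nudt21 knockdown (658–661 against 1068–1092 CPM). In the second cytoplasm library of the Ago2 KO, Rn18s-rs5 took 23.97% of reads.

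**Figure D1:**
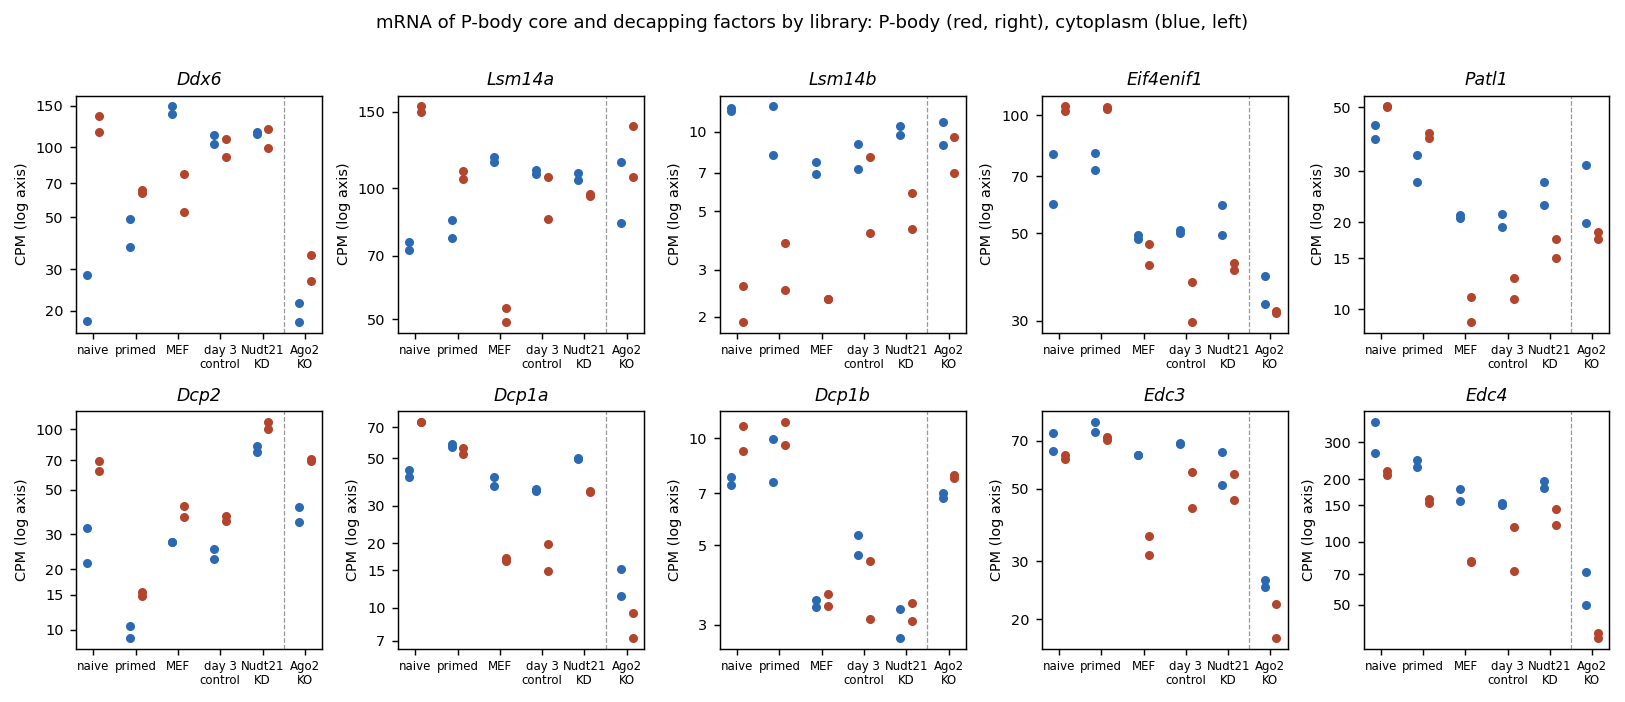
mRNA level of the 10 P-body and decapping factor genes in every library, in CPM on a log axis, with a panel per gene and a point per library, cytoplasm in blue on the left and P-bodies in red on the right of each group. The dashed line sets off the Ago2 KO, which has its own table. Ddx6 in naive ES cells sits at 18.0 and 28.5 CPM in cytoplasm and 135 and 116 CPM in P-bodies, and Lsm14b lies lower in P-bodies than in cytoplasm in naive cells, primed cells and MEFs.

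In naive ES cells, the mRNAs of the helicase, of its scaffold Lsm14a and of the decapping enzyme were enriched in P-bodies, whereas the mRNA of the second scaffold, Lsm14b, was depleted. Of the 10 members, 5 were higher and 1 was lower in P-bodies than in cytoplasm, against 38% of all genes tested (22.6% higher and 15.4% lower). The median log2 fold change of the members was 0.49, and that of all genes tested was −0.06. The 2 fractions did not overlap for any of the 10 members, as for 73.4% of all genes.

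Ddx6 was at 18.0 and 28.5 CPM in naive cytoplasm and at 135 and 116 CPM in naive P-bodies. Both P-body libraries thus lay far above both cytoplasm libraries, a 5.395-fold difference (log2 fold change 2.43 ± 0.24 SE, edgeR adjusted p = 0.00136), and 95.3% of genes tested had a lower log2 fold change. Lsm14a rose from 72.3 and 75.3 CPM in cytoplasm to 154 and 150 CPM in P-bodies, 2.06-fold (log2 fold change 1.04 ± 0.10 SE, edgeR adjusted p = 0.0012). Its paralog Lsm14b went the other way, from 11.9 and 12.3 CPM to 1.91 and 2.61 CPM, a 5.31-fold decrease (log2 fold change −2.41 ± 0.27 SE, edgeR adjusted p = 0.00206) that placed it at percentile 1.58 of all genes. The P-body values of Lsm14b rested on only 18 and 29 reads, so the size of the decrease is imprecise. The paralogs thus lay on opposite sides of 0 within the same libraries. Eif4enif1, the 4E-T mRNA, was at 79.9 and 59.4 CPM in cytoplasm and 102 and 105 CPM in P-bodies (log2 fold change 0.58 ± 0.16 SE, edgeR adjusted p = 0.041).

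Among the decapping factors of naive cells, the mRNA of the catalytic subunit Dcp2 rose from 21.6 and 32.2 CPM to 69.5 and 62.1 CPM in P-bodies, 2.45-fold (log2 fold change 1.29 ± 0.21 SE, edgeR adjusted p = 0.00758). The activator Dcp1a rose from 44.3 and 40.8 CPM to 74.0 and 73.9 CPM (log2 fold change 0.80 ± 0.11 SE, edgeR adjusted p = 0.00433). No call was made for the other activator, Dcp1b, at 7.38 and 7.76 CPM in cytoplasm and 9.22 and 10.8 CPM in P-bodies (log2 fold change 0.41 ± 0.22 SE, edgeR adjusted p = 0.195). Of the enhancers, Edc4 was at 375 and 265 CPM in cytoplasm and 210 and 218 CPM in P-bodies and just missed the threshold (log2 fold change −0.58 ± 0.18 SE, edgeR adjusted p = 0.0527). With DESeq2, with its size factors, with either other filter or with all groups in a single fit, Edc4 was called lower. It was not called without the first (−0.55, adjusted p = 0.269) or the second P-body library (−0.60, adjusted p = 0.231, edgeR), and its log2 fold change was −0.31 without the first and −0.79 without the second cytoplasm library, with a call in both. Edc3 was at 74.0 and 65.2 CPM in cytoplasm and 63.3 and 61.7 CPM in P-bodies (log2 fold change −0.16 ± 0.12 SE, edgeR adjusted p = 0.342), and Patl1 had a log2 fold change of 0.29 (edgeR adjusted p = 0.118).

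The calls of Ddx6, Lsm14a and Lsm14b held without each library of naive cells in turn. Without the first or the second P-body library, Dcp1a (0.80, adjusted p = 0.079 and 0.80, adjusted p = 0.078) and Eif4enif1 (0.60, adjusted p = 0.194 and 0.56, adjusted p = 0.221) were not called, and without the first neither was Dcp2 (1.21, adjusted p = 0.0549), where the lone library was assumed to vary like the cytoplasm. These values are edgeR log2 fold changes and adjusted p-values. The nuclear-retained RNAs given above were also higher in naive P-bodies, and their part in these values was not tested.

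In primed ES cells Ddx6, Lsm14a, Eif4enif1, Patl1 and Dcp2 were higher and Lsm14b and Edc4 lower in P-bodies than in cytoplasm. These 5 and 2 calls compare with 50.7% of all genes called (26.5% higher and 24.2% lower), with a median log2 fold change of 0.28 for the members and 0.00 for all genes. The fractions did not overlap for 9 members, as for 75.2% of all genes.

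Ddx6 was at 49.4 and 37.4 CPM in primed cytoplasm and 63.6 and 65.8 CPM in P-bodies, 1.48-fold higher (log2 fold change 0.56 ± 0.11 SE, edgeR adjusted p = 0.0013). Without the second cytoplasm library its log2 fold change was 0.36 and it was still called. Lsm14a rose 1.31-fold, from 76.8 and 84.7 CPM to 105 and 110 CPM (log2 fold change 0.39 ± 0.08 SE, edgeR adjusted p = 0.000968). Lsm14b again fell, from 8.15 and 12.46 CPM to 3.79 and 2.52 CPM, 3.33-fold (log2 fold change −1.74 ± 0.26 SE, edgeR adjusted p = 0.000129). Its P-body values rested on 52 and 34 reads. Eif4enif1 was higher in P-bodies, with 104 and 105 CPM against 72.6 and 79.9 CPM (log2 fold change 0.43 ± 0.08 SE, edgeR adjusted p = 0.000443).

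The decapping enzyme mRNA Dcp2 rose from 9.14 and 10.5 CPM to 15.4 and 14.8 CPM in primed P-bodies (log2 fold change 0.60 ± 0.15 SE, edgeR adjusted p = 0.00509). Edc4, the scaffold of the decapping complex, fell from 230 and 246 CPM to 154 and 161 CPM, with groups far apart (log2 fold change −0.62 ± 0.06 SE, edgeR adjusted p = 2.76e-06). Patl1 was at 27.7 and 34.1 CPM in cytoplasm and 39.2 and 40.7 CPM in P-bodies (log2 fold change 0.34 ± 0.11 SE, edgeR adjusted p = 0.0211), a call that was lost without the first cytoplasm library (0.20, adjusted p = 0.156) or the second P-body library (0.32, adjusted p = 0.097, edgeR). The Patl1 call was also lost with DESeq2 (adjusted p = 0.0753) and with all groups in a single edgeR fit (adjusted p = 0.104). Dcp1a, called higher in naive P-bodies, had a log2 fold change of −0.11 ± 0.09 (SE) in primed cells and was not called. Edc3 and Dcp1b were not called either, and Dcp1b was the only member whose fractions overlapped.

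In MEFs, 7 of the 10 members were lower in P-bodies than in cytoplasm and only Dcp2 was higher. In all, 55.3% of genes tested were called (26.6% higher and 28.7% lower), and the median log2 fold change was −1.02 for the members and 0.03 for all genes. The fractions did not overlap for 9 members, as for 78.5% of all genes, and Dcp1b was again the exception.

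The helicase mRNA Ddx6 was at 149 and 139 CPM in MEF cytoplasm and 77.0 and 52.8 CPM in MEF P-bodies, 2.16-fold lower (log2 fold change −1.11 ± 0.15 SE, edgeR adjusted p = 0.000204). Lsm14a fell from 118 and 115 CPM to 53.2 and 49.3 CPM (log2 fold change −1.14 ± 0.09 SE, edgeR adjusted p = 1.21e-05), and Lsm14b from 6.90 and 7.67 CPM to 2.32 and 2.33 CPM (log2 fold change −1.60 ± 0.23 SE, edgeR adjusted p = 0.000279). In MEFs both scaffold paralogs therefore lay on the same side of 0. Eif4enif1 was at 48.3 and 49.5 CPM in cytoplasm and 41.5 and 46.9 CPM in P-bodies and was not called (log2 fold change −0.10 ± 0.11 SE, edgeR adjusted p = 0.48).

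Dcp2 alone was higher in MEF P-bodies, with 36.4 and 41.5 CPM against 27.5 and 27.4 CPM in cytoplasm (log2 fold change 0.55 ± 0.12 SE, edgeR adjusted p = 0.00388). That call was lost without the first (0.56, adjusted p = 0.0644) or the second cytoplasm library (0.57, adjusted p = 0.0588, edgeR), where the lone library was assumed to vary like the P-body pair. Its activator Dcp1a fell 2.25-fold, from 40.9 and 37.0 CPM to 17.2 and 16.5 CPM (log2 fold change −1.17 ± 0.12 SE, edgeR adjusted p = 3.77e-05). Edc4 fell from 179 and 158 CPM to 80.0 and 80.7 CPM (log2 fold change −1.02 ± 0.10 SE, edgeR adjusted p = 2.78e-05), and Edc3 from 63.4 and 63.4 CPM to 35.8 and 31.4 CPM (log2 fold change −0.87 ± 0.11 SE, edgeR adjusted p = 0.000106). Patl1, which bridges the helicase and the LSM ring, fell from 20.6 and 21.2 CPM to 11.1 and 9.05 CPM (log2 fold change −1.01 ± 0.15 SE, edgeR adjusted p = 0.000394). The lung epithelial and nuclear-retained RNAs given above were higher in MEF P-bodies than in cytoplasm, whereas most members were lower. The part of these RNAs in the values was not tested.

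**Figure D2:**
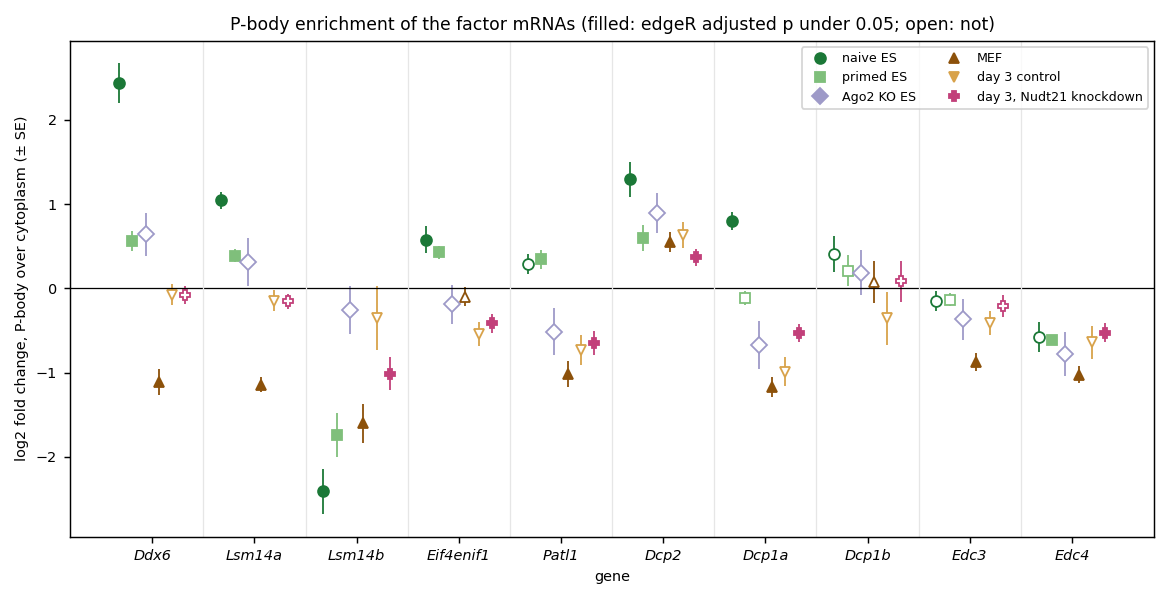
log2 fold change of P-body over cytoplasm for each of the 10 genes in the 6 P-body groups, with standard errors as bars. Filled points mark edgeR adjusted p-values under 0.05, and Dcp2 lies above 0 in 6 of 6 groups while Lsm14b, Edc3 and Edc4 lie below 0 in 6 of 6.

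The differences in enrichment between cell types were tested as interaction terms over the 4 groups involved. Between naive and primed ES cells, 3 members were called, all higher in naive cells, and 25.3% of all genes (13.9% higher and 11.4% lower). The log2 enrichment was larger in naive cells by 1.73 ± 0.29 (SE) for Ddx6 (edgeR adjusted p = 0.00319), by 0.77 ± 0.14 for Dcp1a (edgeR adjusted p = 0.00415) and by 0.51 ± 0.12 for Lsm14a (edgeR adjusted p = 0.0162). The last was lost without either naive P-body library (0.51, adjusted p = 0.0753 and 0.52, adjusted p = 0.0678) or the second primed cytoplasm library (0.45, adjusted p = 0.0616, edgeR). For the other 7 members the difference was not called, and it ran from −0.81 for Lsm14b to 0.55 for Dcp2 on the log2 scale. The nuclear-retained RNAs were higher in naive and lower in primed P-bodies than in cytoplasm, and their part in these differences was not tested.

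Between naive ES cells and MEFs, 5 members were called, all with the larger log2 enrichment in naive cells, and 41.3% of all genes (21.5% higher and 19.8% lower). Ddx6 differed most, by 3.35 ± 0.31 (edgeR adjusted p = 3.17e-05), which is a 10.2-fold difference in the ratio of P-body to cytoplasm. Lsm14a differed by 1.995 ± 0.14 (edgeR adjusted p = 9.72e-06) and Dcp1a by 1.78 ± 0.16 (edgeR adjusted p = 3.06e-05). Patl1 and Edc3 differed by 1.11 ± 0.20 and 0.53 ± 0.16 (edgeR adjusted p = 0.00129 and 0.0227). The Edc3 call was lost without the first (0.52, adjusted p = 0.0833) or second naive P-body library (0.54, adjusted p = 0.0745), and its value was 0.87 without the first MEF P-body library (edgeR). The lung epithelial RNAs of the MEF P-bodies, and the nuclear-retained RNAs of both kinds of P-body library, were higher than in the matching cytoplasm. Their part in these differences was not tested. Naive libraries entered both of these comparisons, so the 2 sets of differences are not independent of each other.

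On day 3 of reprogramming, MEFs with the control hairpin gave no member past the threshold of edgeR, against 0.646% of all genes called. At an unadjusted p under 0.05 there were 6 members and 3899 of 15786 genes. DESeq2 called 5 members and 2105 genes, and a single edgeR fit over all groups of the table called 6 members and 3308 genes. With a block for the replicate number, edgeR called only Dcp1a of the members, and 802 genes. The fractions did not overlap for 8 members, as for 58.5% of all genes. Dcp2 was at 25.2 and 22.6 CPM in cytoplasm and 34.7 and 36.9 CPM in P-bodies (log2 fold change 0.63 ± 0.16 SE, edgeR adjusted p = 0.0999), and Dcp1a was at 35.9 and 35.2 CPM and 19.9 and 14.9 CPM (log2 fold change −0.99 ± 0.17 SE, edgeR adjusted p = 0.0567). Both genes had groups that did not overlap. Ddx6 overlapped between 113 and 103 CPM in cytoplasm and 108 and 90.5 CPM in P-bodies (log2 fold change −0.08 ± 0.13 SE, edgeR adjusted p = 0.739), as did Lsm14b (log2 fold change −0.35 ± 0.38 SE, edgeR adjusted p = 0.607).

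Against untreated MEFs, the interaction test called 2 members, both higher on day 3, and 14.7% of all genes (9.59% higher and 5.13% lower). The log2 enrichment was larger on day 3 by 1.08 ± 0.22 for Ddx6 (edgeR adjusted p = 0.0109) and by 1.04 ± 0.16 for Lsm14a (edgeR adjusted p = 0.00335). Neither call held without each library: Ddx6 was lost without the first MEF cytoplasm library (1.02, adjusted p = 0.0674) or without either day 3 cytoplasm library (1.09, adjusted p = 0.0692 and 0.96, adjusted p = 0.107), and Lsm14a without either day 3 cytoplasm library (0.97, adjusted p = 0.0502 and 1.003, adjusted p = 0.0585, edgeR). The lung epithelial and nuclear-retained RNAs of the MEF P-body libraries bear on these values too, and their part was not tested. Day 3 control P-bodies held 0–0.0493 CPM of the lung epithelial markers and 1540–1788 CPM of the nuclear-retained RNAs.

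NUDT21 is a subunit of a cleavage factor that favors distal polyadenylation sites, so that its loss shortens many 3′ UTRs. In day 3 MEFs with the Nudt21 hairpin, 1 member was higher and 5 were lower in P-bodies, against 21.9% of all genes called (9.04% higher and 12.8% lower). The fractions did not overlap for 7 members, as for 61.9% of all genes. Dcp2 was the member that was higher, at 108 and 99.8 CPM in P-bodies and 76.7 and 82.6 CPM in cytoplasm (log2 fold change 0.37 ± 0.10 SE, edgeR adjusted p = 0.0256). Lsm14b was lower, at 4.29 and 5.86 CPM in P-bodies and 10.5 and 9.73 CPM in cytoplasm (log2 fold change −1.01 ± 0.20 SE, edgeR adjusted p = 0.00611). The other 4 lower members were Patl1 (−0.65 on the log2 scale), Dcp1a (−0.53), Edc4 (−0.53) and Eif4enif1 (−0.41), with edgeR adjusted p-values of 0.00752 to 0.0261. Ddx6, Lsm14a, Edc3 and Dcp1b were not called. The nuclear-retained RNAs were lower in these P-bodies as well, and their part was not tested.

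A single edgeR fit over all groups of the table called 3 members in place of 6, and 2100 genes in place of 3501. Of the 6 calls, only that of Lsm14b held without each library in turn. Each of the other 5 was lost in at least 1 fit without a cytoplasm library of the knockdown. Without the first, the adjusted p of edgeR was 0.28 for Dcp2 (0.29), 0.067 for Dcp1a, 0.149 for Patl1 and 0.301 for Eif4enif1. Without the second, it was 0.103 for Dcp2, 0.0895 for Dcp1a, 0.106 for Edc4 and 0.0782 for Eif4enif1. The difference in enrichment between knockdown and control hairpin was not called by edgeR for any member (0.0118% of all genes, all lower). At an unadjusted p under 0.05 there were 1 member and 819 of 16973 genes, and DESeq2 called 0 members and 26 genes.

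AGO2 is the Argonaute protein through which microRNAs repress their targets. In Ago2 KO ES cells edgeR called 0 members, against 6.51% of all genes (5.47% higher and 1.05% lower). At an unadjusted p under 0.05 there were 4 members and 4031 of 16808 genes. DESeq2 called 1 member and 1731 genes, and edgeR without the filter on low counts called 2 members and 2643 genes. With a block for the replicate number, edgeR called 4 members (Ddx6, Dcp2, Dcp1a and Edc4) and 4178 genes. Same-numbered deviations of the KO fractions correlated at 0.60, but the labels do not say what the number marks. The fractions did not overlap for 8 members, as for 56% of all genes. Dcp2 was at 34.6 and 41.0 CPM in cytoplasm and 69.6 and 70.7 CPM in P-bodies, and its 2 fractions lay well apart (log2 fold change 0.89 ± 0.23 SE, edgeR adjusted p = 0.0569). Ddx6 was at 17.9 and 21.6 CPM and 26.8 and 34.6 CPM (log2 fold change 0.64 ± 0.25 SE, edgeR adjusted p = 0.164).

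Edc4 was at 49.98 and 72.0 CPM in Ago2 KO cytoplasm and 34.7 and 36.4 CPM in P-bodies (log2 fold change −0.78 ± 0.26 SE, edgeR adjusted p = 0.11). Dcp1a was at 11.4 and 15.2 CPM and 7.23 and 9.42 CPM (log2 fold change −0.67 ± 0.28 SE, edgeR adjusted p = 0.188), and Edc3, the member with the let-7 match printed above, at 25.1 and 26.3 CPM and 17.6 and 22.3 CPM (log2 fold change −0.37 ± 0.25 SE, edgeR adjusted p = 0.402). These 3 decapping mRNAs lay lower in both P-body libraries than in both cytoplasm libraries. The nuclear-retained RNAs were higher in both P-body libraries, and their part in the KO values was not tested. Lsm14a and Lsm14b overlapped between the fractions. The KO table was made with another counting method and gene set than that of wild-type cells, so the enrichment of the KO was not tested against that of wild-type naive cells, where Ddx6 had 2.43 and Dcp2 1.29.

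Over the 6 P-body groups, Dcp2 had a log2 fold change above 0 in 6 of 6 and was called in 4. The Ago2 KO is a genotype of naive ES cells and both day 3 groups are reprogramming MEFs, so these are not 6 separate cell types. Lsm14b was below 0 in 6 of 6 and called in 4, Edc4 was below 0 in 6 of 6 and called in 3, and Edc3 was below 0 in 6 of 6 and called in 1. Ddx6 and Lsm14a were above 0 in 3 groups and below 0 in 3, and each was called higher in naive and primed cells and lower in MEFs. Dcp1a was above 0 in naive cells and below 0 in the other 5, and Dcp1b was called in none. The exons of Edc4 overlap those of Nrn1l, those of Edc3 overlap Clk3 and those of Lsm14a overlap 2 other genes in GENCODE M21, so the counts of these 3 are uncertain to the extent that reads were shared.

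The levels of the members in cytoplasm also differed between cell types. Per kilobase of transcript, Edc4 was the highest member in naive cytoplasm at 66.99 ± 16.2 CPM per kb (SD, n = 2), followed by Lsm14a at 25.1 ± 0.72, Eif4enif1 at 18.8 ± 3.89 and Edc3 at 12.2 ± 1.09. At the low end, Lsm14b, Ddx6 and Dcp2 could not be ordered by their libraries, at 4.72 ± 0.0996, 3.84 ± 1.22 and 3.12 ± 0.87 CPM per kb, and Dcp1b was the lowest at 2.28 ± 0.0814. In MEF cytoplasm the order began with Lsm14a at 39.6 ± 0.613 CPM per kb, Edc4 at 35.2 ± 3.11 and Ddx6 at 23.8 ± 1.19, and no 2 neighbors in that order overlapped. The helicase mRNA was thus among the highest members in MEFs and among the lowest in naive cells. These are levels scaled to the longest annotated transcript, which may not be the form expressed.

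Between naive and MEF cytoplasm, 7 members were called, 5 higher and 2 lower in naive cells, and 71.8% of all genes (36% higher and 35.9% lower). Ddx6 was 6.19-fold lower in naive cytoplasm, at 18.0 and 28.5 CPM against 149 and 139 CPM (log2 fold change −2.63 ± 0.23 SE, edgeR adjusted p = 0.000356). Lsm14a was the other lower member (log2 fold change −0.66 ± 0.10 SE, edgeR adjusted p = 0.00255). Patl1 (0.97), Edc4 (0.93), Dcp1b (1.13), Lsm14b (0.73) and Eif4enif1 (0.51) were higher in naive cells on the log2 scale. The calls of Ddx6, Lsm14a and Patl1 held without each library in turn. Those of Dcp1b, Lsm14b and Eif4enif1 were lost without either MEF cytoplasm library, with edgeR adjusted p-values of 0.0885 and 0.101, 0.197 and 0.134, and 0.192 and 0.168. That of Edc4 was lost without the second (edgeR adjusted p = 0.0603), and Eif4enif1 had a log2 difference of 0.33 without the first naive library. The Eif4enif1 call was also lost with no filter on low counts (edgeR adjusted p = 0.0566).

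Between naive and primed cytoplasm, 3 members were called, 1 higher and 2 lower in naive cells, and 43.8% of all genes (22.1% higher and 21.6% lower). Dcp2 was 2.72-fold higher in naive cells, at 21.6 and 32.2 CPM against 9.14 and 10.5 CPM (log2 fold change 1.44 ± 0.26 SE, edgeR adjusted p = 0.00703). Ddx6 was 1.88-fold lower (log2 fold change −0.91 ± 0.27 SE, edgeR adjusted p = 0.0363), at 18.0 and 28.5 CPM against 49.4 and 37.4 CPM. Dcp1a was also lower (log2 fold change −0.45 ± 0.13 SE, edgeR adjusted p = 0.0373). All 3 calls were lost without the first or the second primed library, with log2 differences of 1.35 and 1.52 for Dcp2, −0.70 and −1.12 for Ddx6 and −0.48 and −0.45 for Dcp1a. Dcp1a was also lost with DESeq2 (adjusted p = 0.0745) and with no filter on low counts (edgeR adjusted p = 0.0513).

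On day 3 with the control hairpin, cytoplasmic Ddx6 stood at 113 and 103 CPM against 149 and 139 CPM in untreated MEFs (log2 fold change −0.36 ± 0.07 SE, edgeR adjusted p = 0.000233). This was 1 of 3 members called, 2 higher and 1 lower, against 69.3% of all genes (35.5% higher and 33.7% lower), and the call held without each library. DESeq2 called 1 member and a single edgeR fit over all groups called 0. Edc3 and Dcp1b were higher on day 3 by 0.17 and 0.60 on the log2 scale (edgeR adjusted p = 0.0464 and 0.0171). Edc3 was lost without any 1 of the 4 libraries (edgeR adjusted p from 0.0785 to 0.187). Dcp1b was lost without the first MEF library, the second MEF library or the second day 3 library (edgeR adjusted p = 0.0518, 0.087 and 0.0957).

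Knockdown of Nudt21 changed the cytoplasmic level of 6 members, 4 of them upward and 2 downward, against 49.6% of all genes called (24.6% higher and 25% lower). Dcp2, the member with the longest annotated 3′ UTR, rose from 25.2 and 22.6 CPM to 76.7 and 82.6 CPM, 3.34-fold (log2 fold change 1.74 ± 0.10 SE, edgeR adjusted p = 1.61e-10), and 95.6% of genes tested had a lower log2 fold change. In P-bodies it was at 34.7 and 36.9 CPM with the control hairpin and 108 and 99.8 CPM with the knockdown, so all knockdown libraries lay above all control libraries in both fractions. The cytoplasm groups did not overlap for 74% of all genes, and that share was not computed for P-bodies. Dcp1a rose from 35.9 and 35.2 CPM to 50.2 and 49.8 CPM (log2 fold change 0.50 ± 0.09 SE, edgeR adjusted p = 0.000173), and Edc4 from 150 and 153 CPM to 180 and 196 CPM (log2 fold change 0.31 ± 0.07 SE, edgeR adjusted p = 0.0012). The calls of these 3 genes held without each library, but that of Edc4 was lost with all groups in a single edgeR fit (adjusted p = 0.217). Marker levels moved with the knockdown: the fibroblast markers summed to 1529–1529.5 CPM in knockdown and 4604–4696 CPM in control cytoplasm, 3 pluripotent markers to 704–800.3 and 320.4–331 CPM, and the 8 naive markers to 569.9–664 and 314–325 CPM. Their part in the members' values was not tested. Ddx6, whose annotated 3′ UTR is also long, was at 113 and 103 CPM and 116 and 114 CPM and was not called. Of the other members with long 3′ UTRs, Dcp1a (3757 bases) was higher and Edc3 (4004 bases) had −0.23 on the log2 scale. Edc4, which was higher, has the shortest annotated 3′ UTR of the members. The relation of 3′ UTR length to these values was not tested.

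The other 3 calls of the Nudt21 knockdown in cytoplasm did not hold without each library. DESeq2 called 3 members in place of 6, without Patl1, Dcp1b and Edc3, and a single edgeR fit over all groups called 3, without Patl1, Edc3 and Edc4. Patl1 was higher by 0.32 on the log2 scale, and by 0.20 without the first knockdown library and 0.25 without the second control library (edgeR adjusted p = 0.265 and 0.171). Dcp1b had a log2 fold change of −0.71, and was not called without the second control (−0.62, adjusted p = 0.0903) or the second knockdown library (−0.60, adjusted p = 0.0669, edgeR). Edc3 had −0.23, which became −0.39 without the first and −0.09 without the second knockdown library, and the call was also lost without the first (0.0717) or the second control library (0.0824, edgeR adjusted p).

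The polysome fraction was set against total RNA of the same cells to ask how far each mRNA was engaged by ribosomes, and the ratio is called occupancy here. In control ES cells Edc4 stood out with a low occupancy, and Ddx6 and Edc3 were also low, whereas Dcp2, Patl1 and both LSM14 mRNAs were near or just above 0. Of the 10 members, 1 was higher and 4 were lower in polysomes, against 42.9% of all genes called (18.8% higher and 24.1% lower). The fractions did not overlap for 6 members, as for 51.6% of all genes.

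Edc4 was at 89.4, 86.2 and 95.4 CPM in total and 25.6, 24.1 and 23.4 CPM in polysome-bound RNA of control cells, 3.72-fold lower (log2 fold change −1.89 ± 0.07 SE, edgeR adjusted p = 3.75e-12), and 0.941% of genes tested had a lower log2 occupancy. Ddx6 was at 253, 239 and 220 CPM in total RNA and 150, 139 and 123 CPM in polysomes, 1.74-fold lower (log2 fold change −0.80 ± 0.07 SE, edgeR adjusted p = 1.82e-07). Both genes had all 3 polysome libraries below all 3 total libraries. Edc3 was at 45.7, 49.1 and 48.9 CPM and 33.3, 31.6 and 35.2 CPM (log2 fold change −0.53 ± 0.07 SE, edgeR adjusted p = 1.91e-05), and Eif4enif1 at 105, 111 and 98.2 CPM and 87.0, 87.4 and 85.2 CPM (log2 fold change −0.28 ± 0.06 SE, edgeR adjusted p = 0.00195).

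Lsm14a was the member with a higher level in polysomes, at 232, 242 and 240 CPM against 213, 218 and 199 CPM (log2 fold change 0.18 ± 0.06 SE, edgeR adjusted p = 0.0266). This call was lost without any 1 of the 3 polysome libraries (edgeR adjusted p = 0.0592, 0.0883 and 0.0633) or without the first total RNA library (edgeR adjusted p = 0.0688), and its log2 value stayed between 0.16 and 0.19 in those 4 fits. Dcp2 was at 286, 266 and 243 CPM in total RNA and 282, 275 and 278 CPM in polysomes (log2 fold change 0.07 ± 0.07 SE, edgeR adjusted p = 0.455). Patl1, Lsm14b, Dcp1a and Dcp1b had log2 occupancies of 0.01, 0.04, −0.12 and 0.00 and were not called.

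**Figure D3:**
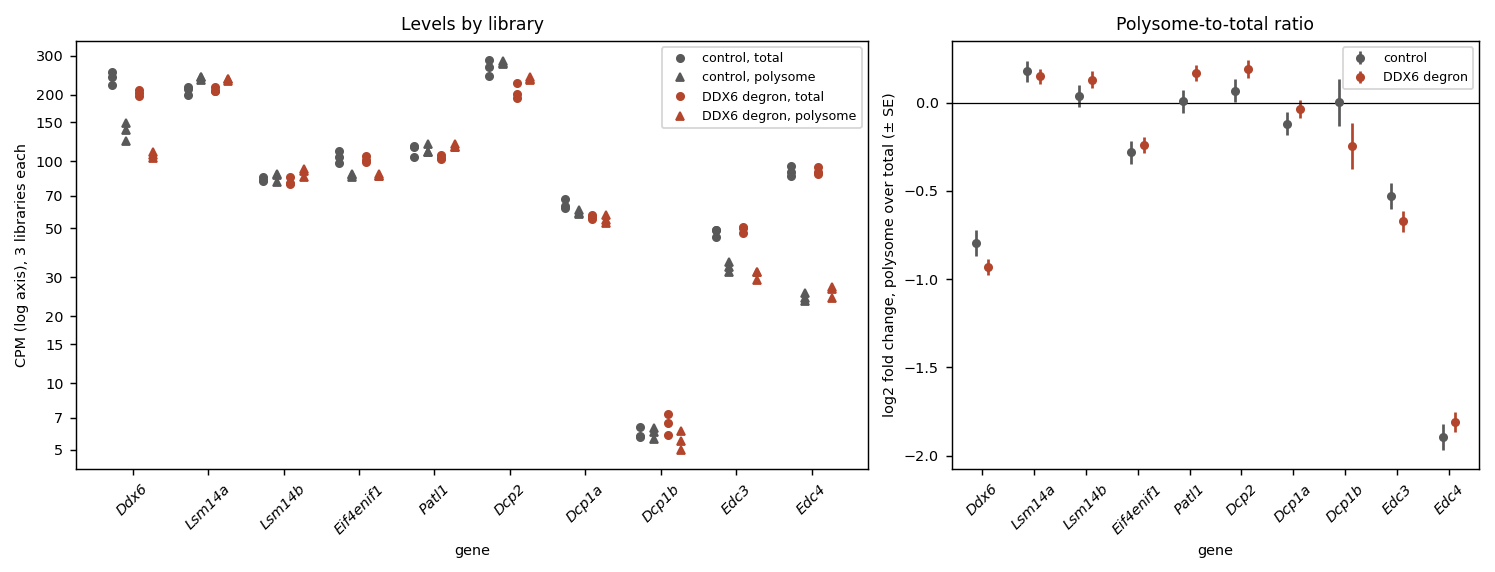
Polysome-bound and total RNA levels of the 10 genes in CPM on a log axis for the 3 control (grey) and 3 DDX6-depleted (red) libraries of each fraction, and beside them the log2 ratio of polysome to total RNA with its standard error. Edc4 and Ddx6 are lower in polysomes than in total RNA in every replicate of both conditions, and Ddx6 and Dcp2 are lower in DDX6-depleted than in control cells.

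After removal of the DDX6 protein, 4 members had a higher and 4 a lower occupancy, against 50.9% of all genes called (24% higher and 26.8% lower), and the fractions did not overlap for 8 members, as for 57.1% of all genes. Edc4 again had the lowest occupancy of the members, at 88.1, 94.4 and 89.7 CPM in total and 24.2, 26.5 and 27.2 CPM in polysome-bound RNA (log2 fold change −1.81 ± 0.06 SE, edgeR adjusted p = 1.98e-17). Ddx6 was at 202, 198 and 211 CPM and 104, 107 and 111 CPM (log2 fold change −0.93 ± 0.04 SE, edgeR adjusted p = 2.81e-14). Edc3 (log2 fold change −0.67 ± 0.06 SE, edgeR adjusted p = 1.43e-09) and Eif4enif1 (log2 fold change −0.24 ± 0.05 SE, edgeR adjusted p = 0.000105) were lower too.

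The 4 members with a higher occupancy were Dcp2 (0.19), Patl1 (0.17), Lsm14a (0.15) and Lsm14b (0.13), all small on the log2 scale. The Lsm14b call was lost without the first (0.0747) or the third polysome library (0.133) and without the first (0.0992) or second total library (0.1, edgeR adjusted p-values). DESeq2 (adjusted p = 0.0566) and a single edgeR fit over all groups (adjusted p = 0.053) did not call it either. The other 7 calls held without each library. Although 8 members were called in depleted cells and 5 in control cells, the difference in occupancy between the conditions was called by edgeR for no member and for 0% of all genes, with 0 members and 844 genes at an unadjusted p under 0.05 and 4 genes called by DESeq2.

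The level of 2 members fell after DDX6 removal. In polysome-bound RNA, where 4.26% of all genes were called (1.91% higher and 2.36% lower), Ddx6 fell from 150, 139 and 123 CPM to 104, 107 and 111 CPM (log2 fold change −0.36 ± 0.06 SE, edgeR adjusted p = 0.00366), and Dcp2 from 282, 275 and 278 CPM to 233, 235 and 241 CPM (log2 fold change −0.24 ± 0.04 SE, edgeR adjusted p = 0.00516). Both calls held without each library. In total RNA, where 3.31% were called (1.24% higher and 2.07% lower), Ddx6 fell from 253, 239 and 220 CPM to 202, 198 and 211 CPM (log2 fold change −0.23 ± 0.06 SE, edgeR adjusted p = 0.0473), and Dcp2 from 286, 266 and 243 CPM to 200, 194 and 225 CPM (log2 fold change −0.37 ± 0.07 SE, edgeR adjusted p = 0.0159), and 7.26% of genes had a lower log2 fold change than Dcp2. The groups did not overlap for Ddx6, Dcp2 and Dcp1a in either kind of RNA, as for 22.8% of all genes in total and 23.5% in polysome-bound RNA.

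The calls in total RNA were not stable. Dcp2 was not called without the first (−0.32, adjusted p = 0.0754) or second control library (−0.37, adjusted p = 0.0702) or without the first (−0.35, adjusted p = 0.145) or second depleted library (−0.33, adjusted p = 0.098), and Ddx6 without these 4 or the third depleted library (edgeR adjusted p from 0.0932 to 0.218).

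Genes that work with the members were followed as 3 further lists. Their counts are calls of the same edgeR fits as for the members, and they depend on the settings as the closing section describes. The LSM ring and cap decay partners (12 genes: Lsm1 to Lsm7, the exonuclease Xrn1 that degrades decapped mRNA, Pnrc1, Pnrc2, Dcps and Nudt16) were mostly higher in MEF P-bodies, with 10 higher and 1 lower (26.6% and 28.7% of all genes) and a median log2 fold change of 0.77. The lung epithelial and nuclear-retained RNAs were also higher in the MEF P-body libraries than in cytoplasm. Their part in the MEF values of this and the next 2 lists was not tested. The members of the ring were among them, such as Lsm7 (1.87) and Lsm4 (1.47), while Xrn1 was lower (−0.60). In naive cells 4 were higher and 3 lower (median −0.12), against 22.6% and 15.4% of all genes. Lsm4 was lower (−0.84), and Xrn1 (1.56) and Pnrc2 (1.72), which recruits the decapping complex, were higher. In primed cells 3 were higher and 2 lower (0.15), against 26.5% and 24.2% of all genes. In the Nudt21 knockdown 5 were higher and 0 lower (0.32), against 9.04% and 12.8%. On day 3 with the control hairpin and in the Ago2 KO edgeR called none, against 0.646% and 6.51% of all genes. Occupancy in control cells was higher for 9 and lower for 1 (0.48), against 18.8% and 24.1% of all genes, and the lower gene was Xrn1 (−0.56). In depleted cells it was likewise higher for 9 and lower for 1 (0.40), against 24% and 26.8%.

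The P-body-associated repressor genes (15 genes, among them Pum2, Tnrc6a to Tnrc6c, Cnot1, Gigyf2 and Mov10) were mostly higher in naive P-bodies. Of these, 10 were higher and 1 lower (median 0.86), against 22.6% and 15.4% of all genes. Pum2, which binds the Pumilio motif, had 3.43, and Tnrc6a and Tnrc6b, the scaffolds of microRNA silencing, had 3.13 and 2.68. In primed cells 8 were higher and 4 lower (0.34), against 26.5% and 24.2% of all genes. In MEFs 3 were higher and 8 lower (−0.63), against 26.6% and 28.7%. Among the lower were Gigyf2 (−1.80) and Cnot1 (−1.48), the scaffold of the deadenylase complex. The counts were 0 and 2 on day 3 with the control hairpin (−0.41), against 0.196% and 0.45% of all genes. They were 1 and 10 with the Nudt21 hairpin (−0.45), against 9.04% and 12.8%. In the Ago2 KO they were 2 and 1 (−0.09), against 5.47% and 1.05%. Occupancy was higher for 2 and lower for 10 in control cells (−0.56), against 18.8% and 24.1% of all genes, with Mov10 at −1.91. In depleted cells it was higher for 3 and lower for 10 (−0.40), against 24% and 26.8%.

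The stress granule assembly genes (13 genes, among them G3bp1, G3bp2, Caprin1, Fxr1 and Tia1) belong to the condensate most like the P-body. In naive cells 6 were higher and 1 lower (median 0.53), against 22.6% and 15.4% of all genes, with Fxr1 at 2.36 and Tia1 at 1.95. In primed cells the counts were 7 and 4 (0.19), against 26.5% and 24.2% of all genes. In MEFs they were 3 and 8 (−0.49), against 26.6% and 28.7%, with Ubap2l at −1.65. They were 0 and 0 on day 3 with the control hairpin (−0.08), against 0.196% and 0.45% of all genes. With the Nudt21 hairpin they were 1 and 3 (−0.03), against 9.04% and 12.8%. In the Ago2 KO they were 1 and 0 (0.03), against 5.47% and 1.05%. Occupancy was higher for 0 and lower for 8 in control cells (−0.55), against 18.8% and 24.1% of all genes, and G3bp2 was among the lower (−1.15). In depleted cells it was higher for 1 and lower for 8 (−0.58), against 24% and 26.8%. The direction of the members' medians, above 0 in naive and primed cells and below 0 in MEFs, was therefore also that of the repressor and stress granule lists, and whether the lists differ was not tested.

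**Figure D4:**
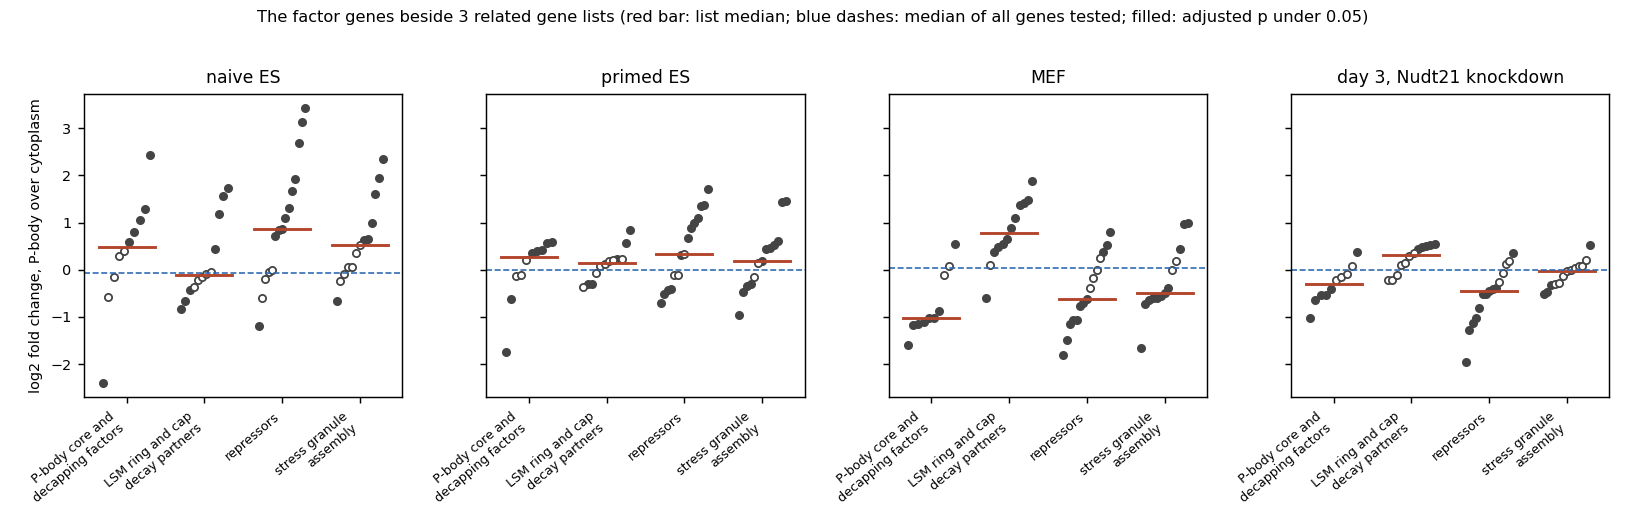
log2 fold change of P-body over cytoplasm for each of the 10 members and for the genes of the 3 further lists, in naive cells, primed cells, MEFs and day 3 MEFs with the Nudt21 hairpin (red bars, list medians; blue dashes, median of all genes tested; filled points, edgeR adjusted p under 0.05). The members, the repressors and the stress granule genes have medians above 0 in naive cells (0.49, 0.86 and 0.53) and below 0 in MEFs (−1.02, −0.63 and −0.49).

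Across the 20 sorted-fraction libraries of wild-type ES cells and fibroblasts, the genes whose log2(CPM + 1) followed that of Ddx6 most closely were Nr1d2 (Pearson r = 0.925), Zfp445 (0.924), Snx30 (0.920), Rnf146 (0.913) and Snrk (0.912), of 10261 genes with a mean of at least 10 CPM. Among the members, Lsm14a had r = 0.616 (rank 884) and Dcp2 r = 0.510 (rank 1865), and the remaining members at that level had values near or below 0, down to −0.42 for Edc4. These libraries share cell types and fractions in groups of 2, so the values describe likeness of pattern over 10 groups and carry no test.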

How the data were processed

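RNA from sorted P-bodies and cytoplasm (24 libraries) and polysome-bound and total RNA (12 libraries) was analyzed as the authors deposited it, in tables of estimated counts per gene. For wild-type ES cells and fibroblasts, the submitters' processing notes name HISAT2, featureCounts and mm10, with reads summed over exons. For Ago2 KO and polysome libraries the deposited expected counts came from salmon. Values that were not whole (tolerance 0.01) made up 17.5–25.7%, 8.35–9.34% and 2.83–3.54% of values per library in the 3 tables and were rounded to whole numbers. Whether counting used strand is not given in the sources used here. A further 10 tables that the authors deposited hold their own comparisons (log2 fold changes and adjusted p-values) and were not used, and 0 columns of samples were left unused.

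Sample titles gave the group and replicate number of each library. The 19 comparisons were fitted with edgeR (4.0.16, under R 4.3.3 with limma 3.58.1) by its quasi-likelihood test with TMM scaling, over all genes whose reads reached 10 in the libraries of the fit together, two-sided, without a replicate block, at a Benjamini-Hochberg adjusted p under 0.05. Differences in enrichment or occupancy were interaction contrasts over 4 groups. Levels are TMM-scaled CPM, and overlap of groups was judged on the same values. Levels of different tables were not compared. The settings tried instead were DESeq2 (1.42.0), its size factors within edgeR, filterByExpr, no filter, unrounded values, a block for the replicate number, 1 fit over the whole table, and leaving out each library. An arm left with 1 library was assumed to vary like the other groups of the fit. The labels do not say that replicates were separate cultures, although the study calls them biological, and p-values measure the spread between these samples. Counting precision follows from the library totals, which give each CPM value its depth. Replicate pairs differed by more than sampling noise (chi-square per degree of freedom 1.82–334 over 24 pairs).

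The members, the 3 further gene lists and the markers were chosen with earlier results of these data known. Named genes are the members in every comparison, genes of those lists, and the 5 genes most like Ddx6. Coordinates are mm10 positions of GENCODE M21, counted from 1, and are not given for Dcp2. Plots were drawn with matplotlib (version 3.10.9).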

Additional observations from a re-analysis of the deposited data

Results flagged for a closer look

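These results stand here because the enrichment of a member in P-bodies differed between cell types by a test of the difference itself (edgeR interaction term, adjusted over all genes). Values are differences in log2 enrichment. Between naive and primed ES cells, the difference was 1.73 for Ddx6, 0.77 for Dcp1a and 0.51 for Lsm14a, all larger in naive cells. Between naive ES cells and MEFs, it was 3.35 for Ddx6, 1.995 for Lsm14a, 1.78 for Dcp1a, 1.11 for Patl1 and 0.53 for Edc3, again larger in naive cells. Between day 3 control cells and MEFs, it was 1.08 for Ddx6 and 1.04 for Lsm14a, larger on day 3. Naive libraries entered the first and second of these tests and MEF libraries the second and the third, so the 10 values are not independent. The MEF P-body libraries held 6.57 and 96.0 CPM of lung epithelial markers, which had no reads in MEF cytoplasm. Nuclear-retained RNAs were higher in P-bodies than in cytoplasm in MEFs (5378–7422 against 1145–1219 CPM) and naive cells (589–621 against 201–263 CPM), and lower in primed cells (531–579 against 721–894 CPM). The part of these RNAs in the differences was not tested. Lsm14a values may hold reads of the GFP-LSM14A construct, whose share was not tested. No group had 4 or more libraries, so single libraries were not tested for standing apart.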

How the results depend on the processing

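Each count of members called was recomputed under up to 7 alternatives and without each library. Values of single members were recomputed likewise in the P-body and occupancy comparisons. In the tests of differences and of levels, only the members already called were recomputed singly. Outside the fits that left out a library, none of these recomputed values changed sign, and 724 kept their side of the threshold, 29 passed it and 28 missed it. Members not called in a difference or a level are outside these numbers. The members called by edgeR in the Ago2 KO P-body comparison were 0, against 1 with DESeq2 and 2 with no filter. In day 3 control P-bodies they were 0, against 5 with DESeq2, 4 with no filter and 6 with all groups of the table in a single fit. With all groups in a single fit they were 3 in place of 6 in Nudt21 knockdown P-bodies, 3 in place of 6 in Nudt21 knockdown against day 3 control cytoplasm and 0 in place of 3 in day 3 control against MEF cytoplasm, and DESeq2 called 3 and 1 in the last pair. The cause was not tested.

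Labels do not state what the replicate number marks, and same-numbered deviations correlated from −0.05 to 0.60, with 2 of 6 samples in the designs of 3 pairs closest to their own number. With the replicate block the members called were 4 in the Ago2 KO (Ddx6, Dcp2, Dcp1a and Edc4), 1 in day 3 control P-bodies (Dcp1a) and 0 in degron against control total RNA, and the block also added Edc4 in naive P-bodies and dropped Dcp1a in naive against primed cytoplasm and Edc3 in day 3 control against MEF cytoplasm. It changed no other call among the single-member values that were recomputed. For all genes it gave 4178 calls in place of 1095 in the Ago2 KO, 802 in place of 102 in day 3 control P-bodies, 82 in place of 509 in degron total RNA, 6 in place of 0 for the difference in occupancy and 1 in place of 2 for the knockdown minus day 3 control difference.

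Leaving out 1 library at a time, members called ranged from 0 to 4 in the Ago2 KO, 0 to 7 in day 3 control, 3 to 10 in naive and 2 to 7 in Nudt21 knockdown P-bodies. For differences in enrichment they ranged from 2 to 5 for naive minus primed, 4 to 8 for naive minus MEF, 0 to 4 for day 3 control minus MEF and 0 to 2 for Nudt21 knockdown minus day 3 control. For levels they ranged from 0 to 5 for naive against primed, 3 to 9 for naive against MEF, 1 to 2 for day 3 control against MEF and 3 to 5 for Nudt21 knockdown against day 3 control cytoplasm, and 0 to 4 for degron against control total RNA. Uncalled members near 0 changed sign in such fits: Dcp1b from −0.0293 to 0.0448 and Patl1 from −0.0356 to 0.0415 in control polysome occupancy, Dcp1b from −0.0187 to 0.20 and Ddx6 from −0.24 to 0.0617 in Nudt21 knockdown P-bodies, Eif4enif1 from −0.21 to 0.0106 in MEFs, Lsm14a from −0.0204 to 0.53 in the Ago2 KO and Lsm14b from −0.97 to 0.0947 in day 3 control P-bodies.

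Counts for the 3 further lists and for all genes were scored together. Outside the fits that left out a library, 460 stayed the same within 1.5 times and 68 were scored as moved. Calls over all genes moved by more than 1.5 times in 9 comparisons. In day 3 control P-bodies 102 became 2105 with DESeq2, 202 with filterByExpr, 1940 with no filter, 220 without rounding and 3308 in a single fit, and in the Ago2 KO 1095 became 1731 with DESeq2, 716 with its size factors and 2643 with no filter. A single fit gave 5128 in place of 8209 in primed P-bodies, 2100 in place of 3501 in Nudt21 knockdown P-bodies, 4877 in place of 7934 in Nudt21 knockdown cytoplasm, 362 in place of 666 in degron polysome RNA and 1138 in place of 509 in degron total RNA. In the latter pair no filter gave 1029 and 863, and DESeq2 gave 832 in total RNA. The difference in occupancy had 4 calls with DESeq2 and 16 with no filter, and the knockdown minus day 3 control difference 26 and 62. DESeq2 size factors shifted the median of all genes by at most 0.0762 (log2). With 2 libraries in most groups, differences within the spread of a pair were not detectable.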
